A study of Rattus norvegicus with 9 samples.

Results

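Named genes of the inflammasome and of pyroptosis were followed in rat cardiosphere-derived cells: Nlrp3, Nlrp1a, Nek7, Pycard, Casp1, Casp4, Casp8 and Gsdmd. They were matched by symbol, and the set was chosen with earlier results of these data known. All 8 were found among the 19919 genes of the deposited table. Cardiosphere-derived cells (CDCs) are cells that grow out of cultured heart tissue and can gather into spheroids, the cardiospheres (CSps). The cells were wild type (WT) and were a primary culture from heart. The CDCs came from heart septum of 4-week-old Sprague Dawley rats, whose sex is given as male in one place and as female in another. The cells were cultured on 1 of 3 substrates: polystyrene (PS), an ultralow attachment surface (ULA), or OPC, a hydroxypropyl cellulose ester with liquid crystal properties. RNA of 3 biological replicates per substrate was sequenced after 3 days of culture, which gave 9 libraries. All groups share the cell source and genotype and differ in the substrate. The labels name no animal for a replicate, so a p-value refers to the variation among these cultures and not among rats.

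Inflammasomes are protein platforms that answer to signs of infection or of cell damage. A sensor such as NLRP3 gathers the adaptor ASC, the product of Pycard, which recruits pro-caspase-1. Active caspase-1 matures the precursors of IL-1β and IL-18 and cuts gasdermin D, whose freed part forms pores in the plasma membrane, the step that gives pyroptosis its lytic character. Caspase-4 (the rodent caspase known in mouse as caspase-11) cuts gasdermin D directly after it binds bacterial lipopolysaccharide, the noncanonical route. The mRNA of these genes gives the amount of transcript and not the cleavage of a protein or the assembly of a platform.

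Values are FPKM, fragments scaled by gene length and by the counted reads of the library, a unit read from the values themselves. The steps between low values gave whole reads and a depth of 12741100 to 17222100 counted reads per library, so the reads behind each value are known for the 8 genes and for part of the other genes. Groups were compared with limma on log2(FPKM + 1) over the 12513 genes with at least 1 FPKM in at least 3 libraries, two-sided, with p-values adjusted over these genes (Benjamini-Hochberg). A gene was called at an adjusted p of at most 0.05, and was a DEG if its |log2FC| was also at least 1. The addition of 1 FPKM makes the log2FC of low genes smaller than that of their FPKM. ULA vs PS and OPC vs PS share the PS libraries, and OPC vs ULA shares its libraries with both. The mesenchymal markers of CDCs were present (9 of 9 tested, with Thy1 at 137 and Eng at 40.2 FPKM in PS), while 0 of 4 lymphoid, 0 of 4 endothelial and 0 of 6 cardiomyocyte markers found in the table passed the filter. The levels of the mesenchymal markers differed between substrates. Of the 9, 5 were called higher and 3 lower in ULA vs PS (38.4% and 30.5% of all tested genes). In OPC vs PS the counts were also 5 and 3 (40.4% and 23.9%). Thy1 averaged 20.9 in ULA and 29.3 in OPC, while Nt5e averaged 9.24 in PS, 84.6 in ULA and 21.3 in OPC.

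The 8 genes spanned a wide range of levels. In PS, Casp4 stood highest with a mean of 58.0 FPKM, followed by Nek7 (43.0), Gsdmd (18.9), Nlrp3 (10.4), Casp8 (5.15), Pycard (4.08), Casp1 (1.60) and Nlrp1a (0.176). In PS, of these neighbours, Casp8 and Pycard overlapped in range. In ULA, Casp4 (49.5) and Nek7 (49.4) stood together with overlapping ranges, and Gsdmd (9.51), Pycard (5.85), Casp8 (4.58), Casp1 (3.17), Nlrp3 (0.836) and Nlrp1a (0.216) followed without overlap between neighbours. In OPC, Nek7 (51.2) stood above Casp4 (23.4), Gsdmd (11.7), Casp8 (5.72), Pycard (4.52), Casp1 (2.96), Nlrp3 (1.86) and Nlrp1a (0.271), again without overlap between neighbours. Nlrp3 thus stood above Casp8, Pycard and Casp1 in PS and below all of them on both other substrates. Nlrp1a did not pass the filter in any group, so 7 of the 8 genes were tested.

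**Figure D1:**
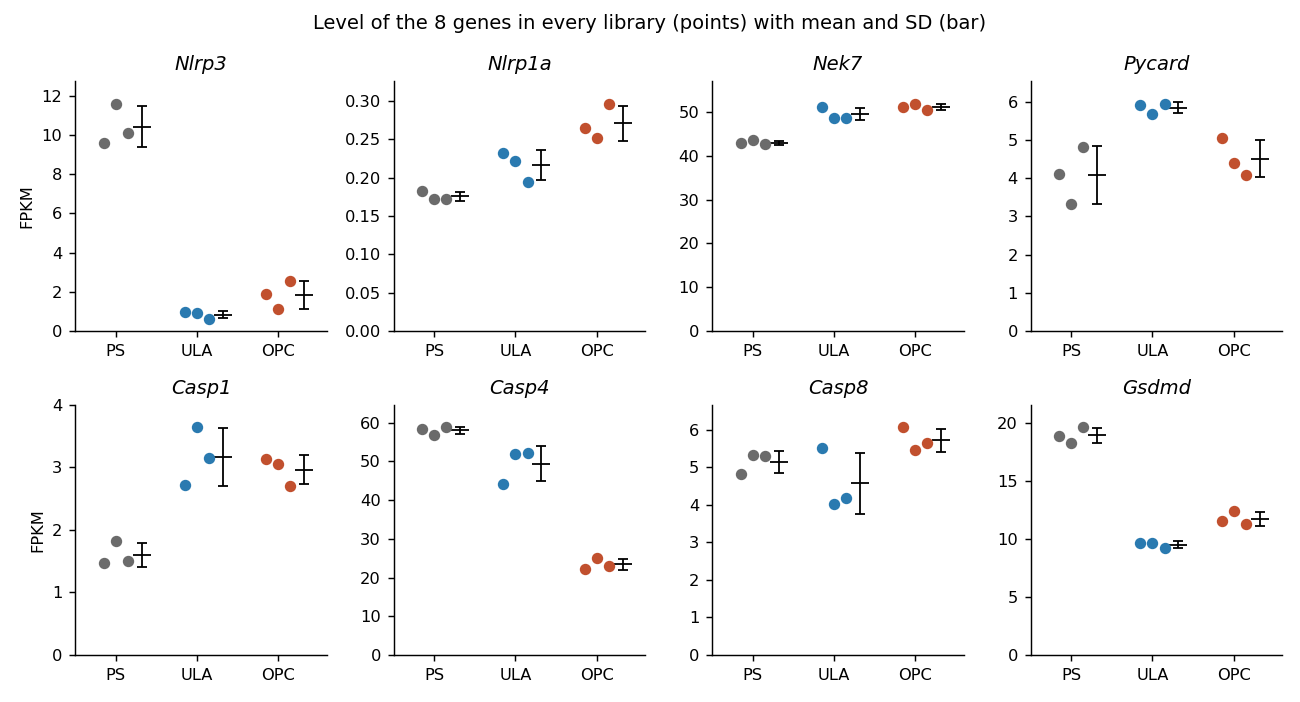
FPKM (vertical axis, linear from 0, own scale per gene) of the 8 genes in the 3 PS, 3 ULA and 3 OPC libraries, 1 point per library, with the mean and SD as a bar. Nlrp3 and Gsdmd were highest in PS, Casp1 was lowest in PS, and Casp4 was lowest in OPC, at 22.2 to 25.0 FPKM.

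In ULA vs PS, 6 of the 7 tested genes were called, where 68.9% of all tested genes were. Of these, 3 were higher in ULA (Casp1, Pycard and Nek7; 38.4% of all tested genes were called higher) and 3 were lower (Nlrp3, Gsdmd and Casp4; 30.5% called lower), and 1 was a DEG (Nlrp3; 15.8% of all). In OPC vs PS, 5 of 7 were called against 64.4% of all genes, 2 of them higher (Casp1 and Nek7; 40.4% called higher) and 3 lower (Nlrp3, Casp4 and Gsdmd; 23.9% called lower), and 2 were DEGs (Nlrp3 and Casp4; 12.7% of all). In OPC vs ULA, 5 of 7 were called against 54.0%, with 3 higher in OPC (Nlrp3, Gsdmd and Casp8; 32.2% called higher) and 2 lower (Casp4 and Pycard; 21.7% called lower), and 1 was a DEG (Casp4; 4.33% of all). The shares of called genes were thus near those of all genes in each comparison, and the genes did not move one way. The median log2FC of the 7 genes was −0.15 in ULA vs PS, 0.12 in OPC vs PS and 0.05 in OPC vs ULA, beside 0.06, 0.11 and 0.06 over all tested genes. The count of 5 in OPC vs ULA was 2 without ULA replicate 3, and 3 without ULA replicate 2, without OPC replicate 2 or without OPC replicate 3.

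**Figure D2:**
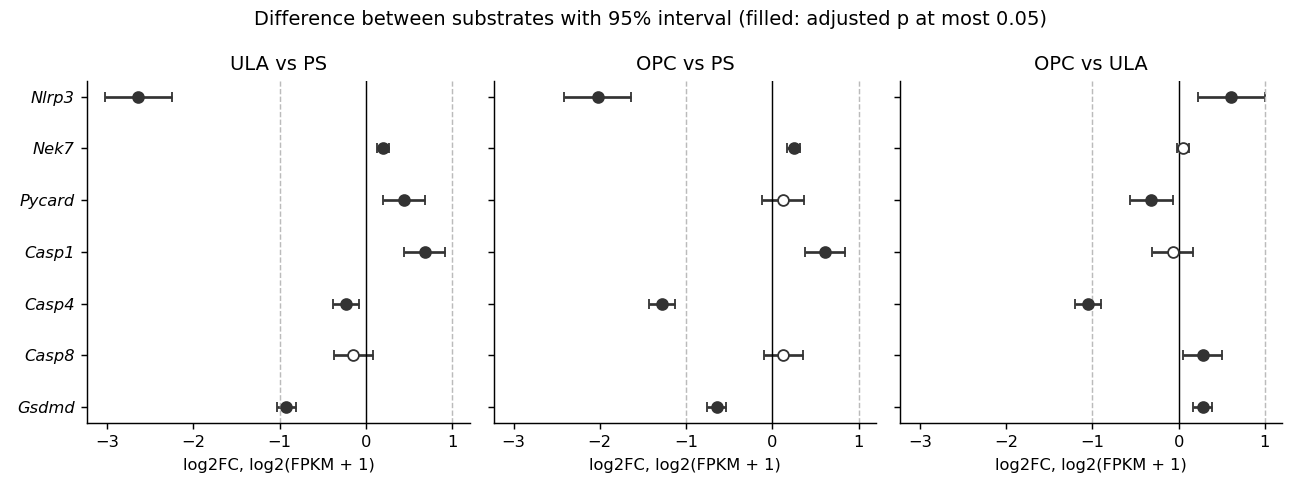
Difference between substrates on the log2(FPKM + 1) scale (horizontal axis) with its 95% interval for the 7 tested genes in each of the 3 comparisons. Filled points were called at an adjusted p of at most 0.05 and dashed lines mark a log2FC of 1 in either direction. Nlrp3 lies farthest from 0 against PS (−2.64 and −2.03), and Casp4 lies farthest in OPC vs ULA (−1.05).

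The letters before the start site are shown for Nlrp3 and Casp1, since these genes moved in opposite directions on both substrates relative to PS. RefSeq promoter sequences were matched for 5 of the 8 genes (Nlrp3, Nlrp1a, Nek7, Pycard and Casp1). The 250 bases before the annotated start are given, 5′ to 3′, in build GRCr8, while gene positions elsewhere are in rn6 as in the deposited table. The Nlrp3 stretch is chr10:44827848-44828097 on the + strand and that of Casp1 is chr8:10872580-10872829 on the + strand. Capitals mark matches to any of 5 motifs searched on both strands: the NF-kappaB type (GGG and CC with any 5 bases between them), the interferon-stimulated response element type (GAAA, any 2 bases, GAAA), the STAT type (TTC, any 3 bases, GAA), the AP-1 type (TGA, any 1 base, TCA) and the hypoxia response core (ACGTG).
Nlrp3: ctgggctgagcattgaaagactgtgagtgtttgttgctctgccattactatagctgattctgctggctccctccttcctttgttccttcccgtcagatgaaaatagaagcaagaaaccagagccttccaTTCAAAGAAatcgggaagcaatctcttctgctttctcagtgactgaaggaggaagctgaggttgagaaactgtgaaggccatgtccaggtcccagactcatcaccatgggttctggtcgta
Casp1: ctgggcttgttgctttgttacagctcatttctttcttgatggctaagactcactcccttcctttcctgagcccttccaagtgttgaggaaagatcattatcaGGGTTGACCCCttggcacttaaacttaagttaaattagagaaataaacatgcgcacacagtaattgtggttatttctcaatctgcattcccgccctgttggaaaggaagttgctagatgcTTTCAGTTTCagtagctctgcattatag

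The Nlrp3 stretch held 1 match, of the STAT type, at positions −121 to −113 relative to the start (7.67% of 33469 such stretches in the reference hold this motif). The Casp1 stretch held 2 overlapping matches of the NF-kappaB type, which begin at positions −148 and −147 (42.3% of stretches hold one), and 1 of the interferon-stimulated response element type, at −28 to −19 (3.41%). Neither stretch held the AP-1 type (6.34% of stretches) or the hypoxia response core (16.6%). A match is a description of letters and not a measured binding site. Of the other matched genes, Nek7 held 3 matches of the NF-kappaB type, and Nlrp1a and Pycard held 0 of the 5 motifs.

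Among the sensors, Nlrp3 (rn6 chromosome 10, 45893018 to 45918254, + strand) encodes the sensor that responds to potassium loss and other disturbances of the cell. Its level was 9.57, 11.6 and 10.1 FPKM in the PS libraries, 0.971, 0.908 and 0.628 in the ULA libraries and 1.90, 1.13 and 2.54 in the OPC libraries. Every PS library stood far above every ULA and OPC library, and the OPC libraries stood above the ULA libraries with no overlap. The mean fell from 10.4 ± 1.04 (SD, n = 3) in PS to 0.836 ± 0.183 in ULA, 12.5-fold lower, and to 1.86 ± 0.709 in OPC, 5.61-fold lower. The log2FC was −2.64 (95% interval −3.03 to −2.25, adjusted p = 6.22e-07 with limma) in ULA vs PS and −2.03 (−2.42 to −1.64, adjusted p = 5.13e-06) in OPC vs PS. Between ULA and OPC, Nlrp3 was higher in OPC, with a log2FC of 0.61 (0.22 to 1.00, adjusted p = 0.0141) and a mean 2.22-fold higher. Without ULA replicate 3 this last log2FC was 0.53 with an adjusted p of 0.0504, and with a pseudocount of 0.1 it was 1.02, past the DEG threshold. The ULA libraries held 148 Nlrp3 reads in all, the OPC libraries 354 and the PS libraries 2031.

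Nlrp1a, which encodes a sensor of the NLRP1 type (chromosome 10, 57692474 to 57822498, − strand), was the lowest of the 8. Its level was 0.183, 0.172 and 0.172 FPKM in PS, 0.233, 0.222 and 0.195 in ULA and 0.264, 0.252 and 0.296 in OPC. The groups did not overlap and stood in the order PS, ULA, OPC, but each value rested on only 18 to 32 reads. The level over the pooled reads of a group was 0.176 (95% Poisson interval 0.133 to 0.227) in PS, 0.218 (0.168 to 0.277) in ULA and 0.271 (0.217 to 0.334) in OPC, and these intervals, which cover counting error only, overlapped. The exact permutation test gave p = 0.1 in each comparison (two-sided), the smallest that 3 against 3 libraries allow. In a limma fit without the filter, the adjusted p was 0.026 in OPC vs PS (log2FC 0.11), 0.287 in ULA vs PS and 0.198 in OPC vs ULA. Per library, Nlrp3 stood at 52.3 to 67.3 times the FPKM of Nlrp1a in PS, at 3.22 to 4.17 times in ULA and at 4.48 to 8.59 times in OPC.

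Nek7 (chromosome 13, 55488531 to 55561750, − strand) encodes a kinase that binds NLRP3 and is needed for its assembly. Its level was 42.8, 43.5 and 42.6 FPKM in PS, 51.0, 48.6 and 48.6 in ULA and 51.2, 51.8 and 50.5 in OPC. ULA and OPC stood above PS in every library and overlapped each other. The rises were small, with a log2FC of 0.20 (0.13 to 0.27, limma adjusted p = 3.65e-04) in ULA vs PS and 0.25 (0.18 to 0.32, adjusted p = 9.20e-05) in OPC vs PS. OPC vs ULA gave 0.05 (−0.02 to 0.12, adjusted p = 0.212), and −0.02 after upper-quartile rescaling. The transcript of the partner thus stayed abundant where that of the sensor was low: Nek7 stood at 3.75 to 4.47 times the FPKM of Nlrp3 in PS, 52.5 to 77.5 times in ULA and 19.9 to 45.9 times in OPC.

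Of 13 other sensor genes listed, 9 were found and 2 passed the filter, both with called differences in OPC vs ULA, where 54.0% of all tested genes were called. Nod1, a cytosolic sensor of bacterial peptidoglycan, was lower in OPC (19.4 ± 0.466 FPKM) than in ULA (23.7 ± 0.671, log2FC −0.27, limma adjusted p = 2.89e-04). Its PS mean was 19.5, so ULA also stood above PS (0.27, adjusted p = 1.80e-04), and OPC vs PS was not called (adjusted p = 0.919). Nlrx1, a mitochondrial member of the NLR family, was higher in OPC (15.3 ± 0.545) than in ULA (12.6 ± 0.205, log2FC 0.27, adjusted p = 0.00383). The proteases Dpp8 and Dpp9, which hold NLRP1 in check, moved together. Dpp9 stood at 24.4 FPKM in PS, 19.9 in ULA and 25.3 in OPC, and Dpp8 at 37.2, 32.8 and 37.0. Both were lower in ULA than in PS (log2FC −0.28 and −0.18, adjusted p = 2.01e-04 and 0.00206) and higher in OPC than in ULA (0.33 and 0.17, adjusted p = 1.36e-04 and 0.00403), and neither was called in OPC vs PS.

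The adaptor gene Pycard (chromosome 1, 199437832 to 199439210, − strand) encodes ASC, which links the sensor to caspase-1. Its level was 4.12, 3.32 and 4.82 FPKM in PS, 5.93, 5.67 and 5.95 in ULA and 5.05, 4.41 and 4.09 in OPC. The ULA libraries stood above all others, and the PS and OPC libraries overlapped. Pycard was higher in ULA than in PS with a log2FC of 0.44 (0.19 to 0.69, limma adjusted p = 0.00541). It was lower in OPC than in ULA with a log2FC of −0.32 (−0.56 to −0.07, adjusted p = 0.035), and OPC vs PS gave 0.12 (−0.12 to 0.37, adjusted p = 0.345). The call in OPC vs ULA was lost without ULA replicate 1, 2 or 3 or without OPC replicate 2 or 3, at adjusted p-values of 0.0823, 0.0605, 0.0845, 0.084 and 0.108. Each Pycard value rested on 53 to 90 reads.

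Casp1 (chromosome 8, 2604962 to 2614631, + strand), the caspase of the canonical inflammasome, was higher on ULA and on OPC than on PS. Its level was 1.47, 1.82 and 1.50 FPKM in PS, 2.71, 3.64 and 3.15 in ULA and 3.13, 3.06 and 2.70 in OPC. Every ULA and OPC library stood above every PS library, and ULA and OPC overlapped. The mean was 1.60 ± 0.194 (SD, n = 3) in PS, 3.17 ± 0.464 in ULA, 1.98-fold higher, and 2.96 ± 0.233 in OPC, 1.85-fold higher. The log2FC was 0.68 (0.44 to 0.92, limma adjusted p = 2.83e-04) in ULA vs PS and 0.61 (0.37 to 0.85, adjusted p = 6.58e-04) in OPC vs PS. OPC vs ULA gave −0.07 (−0.31 to 0.17, adjusted p = 0.609), so the interval held differences of either sign, and the sign turned (0.01) without ULA replicate 2. Casp1 was a low gene, at 33 to 82 reads per library.

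The 3 genes with the pattern most like that of Casp1, by Pearson's r over the 9 libraries in log2(FPKM + 1) and among genes with a mean of at least 5 FPKM, were Rrm2b (r = 0.99), Dlg4 (r = 0.99) and Lime1 (r = 0.99). Their means were 4.53, 7.73 and 7.14 FPKM in PS, ULA and OPC for Rrm2b, 27.9, 34.5 and 34.3 for Dlg4, and 3.34, 6.84 and 6.36 for Lime1. All 3 were lower in PS than in both other groups, and the 9 points share their libraries and group means.

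Casp4 (chromosome 8, 2635851 to 2651652, + strand), the caspase of the noncanonical route, had the highest level of Casp1, Casp4, Casp8 and Casp12 in each group and was lowest in OPC. Its level was 58.4, 56.9 and 58.8 FPKM in PS, 44.2, 51.9 and 52.3 in ULA and 22.2, 25.0 and 22.9 in OPC. The 3 groups did not overlap, and the gap lay between OPC and the rest. OPC (23.4 ± 1.42) stood 2.48-fold below PS (58.0 ± 0.977), with a log2FC of −1.28 (−1.43 to −1.13, limma adjusted p = 1.58e-07). It stood 2.12-fold below ULA (49.5 ± 4.53), with a log2FC of −1.05 (−1.20 to −0.90, adjusted p = 1.90e-06). ULA vs PS gave a much smaller fall, by 0.23 on the log2 scale (adjusted p = 0.0117). Leaving out any 1 library kept each of these calls, with a log2FC of −1.12 to −1.01 in OPC vs ULA.

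Casp12 lies next to Casp4 in the same order and strand (chromosome 8, 2659865 to 2686160) and was singled out for this position after its values were seen. Caspase-12 belongs to the inflammatory caspases of rodents. Its level was 39.6, 40.1 and 36.5 FPKM in PS, 16.5, 13.9 and 15.1 in ULA and 16.2, 14.9 and 15.0 in OPC, so the PS libraries stood above all others and ULA and OPC overlapped. The log2FC was −1.30 in ULA vs PS and −1.28 in OPC vs PS (limma adjusted p = 1.02e-07 and 1.47e-07), and 0.02 (−0.13 to 0.17, adjusted p = 0.83) in OPC vs ULA. The 3 neighbours thus had 3 orders of levels: Casp1 was lowest in PS, Casp12 was highest in PS, and Casp4 was lowest in OPC. Per library, the FPKM of Casp4 was 31.3 to 39.7 times that of Casp1 in PS, 14.2 to 16.6 times in ULA and 7.10 to 8.50 times in OPC. The ratio of Casp4 to Casp12 was 1.42 to 1.61 in PS, 2.68 to 3.73 in ULA and 1.37 to 1.68 in OPC. None of the 8 genes overlapped another gene of the table, but related caspase genes may share reads, and the sources used here do not say how such reads were counted.

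**Figure D3:**
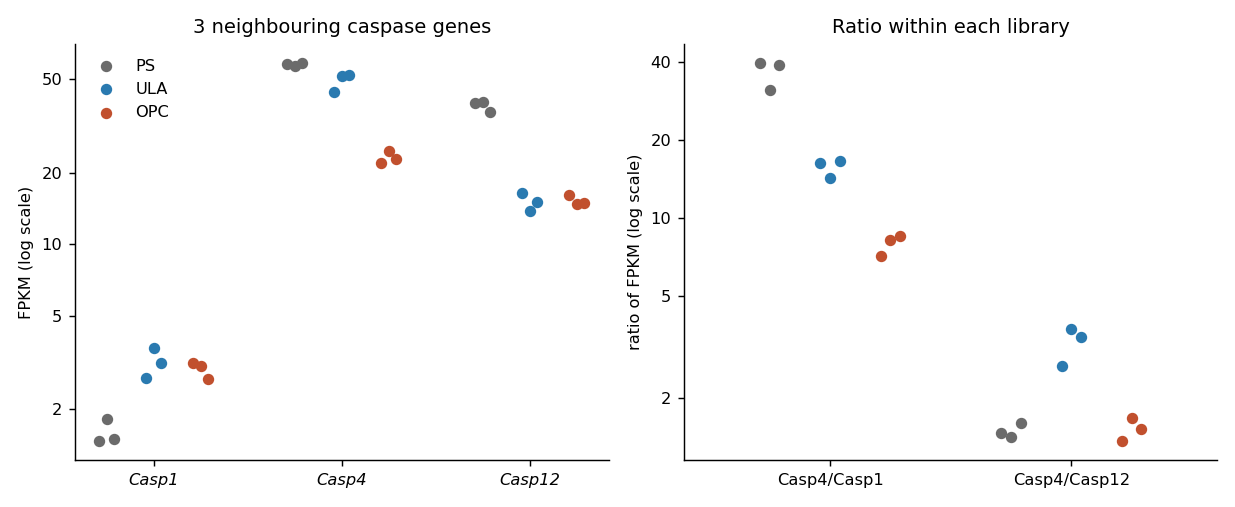
Left, FPKM (log axis) of the neighbouring genes Casp1, Casp4 and Casp12 in the 9 libraries, 1 point per library, coloured by substrate. Right, the ratio of Casp4 to Casp1 and of Casp4 to Casp12 within each library (log axis). Casp4/Casp1 stepped down from a mean of 36.7 in PS to 15.7 in ULA and 7.92 in OPC, while Casp4/Casp12 was highest in ULA (3.29).

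Casp8 (chromosome 9, 65614142 to 65662106, + strand) encodes the initiator caspase of death receptor signalling, which can also act at inflammasomes. Its level was 4.81, 5.33 and 5.31 FPKM in PS, 5.51, 4.03 and 4.19 in ULA and 6.06, 5.46 and 5.64 in OPC. ULA replicate 1 stood apart from the other ULA libraries and within the OPC range, so these groups overlapped. OPC vs ULA gave a log2FC of 0.28 (0.05 to 0.50, limma adjusted p = 0.0403), ULA vs PS −0.15 (−0.37 to 0.08, adjusted p = 0.211) and OPC vs PS 0.13 (−0.10 to 0.35, adjusted p = 0.283). The call in OPC vs ULA was lost without the filter (adjusted p = 0.0741), after upper-quartile rescaling (0.101), in a fit of these groups alone (0.0709) and without any 1 of PS replicates 2 and 3, ULA replicates 2 and 3 and OPC replicates 1, 2 and 3 (0.0544 to 0.132). Without ULA replicate 1, Casp8 was called lower in ULA than in PS (log2FC −0.27, adjusted p = 0.013).

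Gsdmd (chromosome 7, 116889572 to 116894134, + strand) encodes the pore protein gasdermin D. Its level was 18.9, 18.3 and 19.6 FPKM in PS, 9.68, 9.66 and 9.19 in ULA and 11.5, 12.4 and 11.3 in OPC. The 3 groups did not overlap, with PS highest and ULA lowest. Gsdmd was 1.99-fold lower in ULA (9.51 ± 0.276) and 1.61-fold lower in OPC (11.7 ± 0.603) than in PS (18.9 ± 0.658). The log2FC was −0.92 (−1.04 to −0.81, limma adjusted p = 1.71e-07) in ULA vs PS and −0.65 (−0.76 to −0.53, adjusted p = 2.78e-06) in OPC vs PS. OPC stood above ULA by 0.28 (0.16 to 0.39, adjusted p = 0.00132), and this call held when any 1 library was left out. Gsdmd and Nlrp3 thus shared the order PS, OPC, ULA from high to low.

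Downstream of gasdermin D, Ninj1, which ruptures the plasma membrane in lytic death, stood at 75.4 ± 1.40 FPKM in PS, 107 ± 5.26 in ULA and 70.6 ± 2.65 in OPC. It was higher in ULA than in PS (log2FC 0.50, limma adjusted p = 4.41e-06) and lower in OPC than in ULA (−0.60, adjusted p = 4.11e-06). Gsdme, another gasdermin that can form pores, stood at 2.38, 2.10 and 2.36 FPKM in PS, 1.26, 2.13 and 1.29 in ULA and 2.38, 2.40 and 2.06 in OPC. ULA replicate 2 stood within the range of both other groups. Gsdme was called in ULA vs PS (−0.37, adjusted p = 0.0295) and in OPC vs ULA (0.37, adjusted p = 0.038), and the first call was lost without PS replicate 1 or 3 or ULA replicate 1 or 3 (adjusted p = 0.0754 to 0.0999) and the other without any 1 of PS replicates 1 and 3, ULA replicates 1 and 3 and OPC replicates 1 and 2 (0.052 to 0.121). Both Gsdme calls were also lost without the filter (0.0515 and 0.0674) and in a fit of the compared groups alone (0.0516 and 0.0714), and that of OPC vs ULA after upper-quartile rescaling (0.0562) and with a replicate block (0.0528). The other 3 gasdermin and rupture genes listed were found in the table and did not pass the filter.

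The cytokine precursors that caspase-1 matures were barely detected. Il1b, the gene of the IL-1β precursor, was at 0.0489, 0.166 and 0.0969 FPKM in PS, 1.01, 0.675 and 0.933 in ULA and 0.838, 0.373 and 0.582 in OPC. All ULA and OPC libraries stood above all PS libraries, and ULA and OPC overlapped. Pooled over a group, 7 reads in PS gave 0.107 FPKM (95% Poisson interval 0.0432 to 0.221), 52 reads in ULA gave 0.883 (0.660 to 1.16) and 39 reads in OPC gave 0.616 (0.438 to 0.843). The exact permutation test gave p = 0.1 in ULA vs PS and in OPC vs PS and p = 0.2 in OPC vs ULA, where 0.1 is the smallest possible. The limma fit without the filter gave adjusted p-values of 6.88e-04, 0.00611 and 0.167 in the same order. Il18, the gene of the IL-18 precursor, was at 0.135, 0 and 0.201 FPKM in PS, 0.243, 0.156 and 0.837 in ULA and 0.639, 0.443 and 0.403 in OPC, from 0 to 11 reads per library. Its ULA libraries overlapped both other groups, and the adjusted p without the filter was 0.166, 0.0747 and 0.676 in ULA vs PS, OPC vs PS and OPC vs ULA.

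**Figure D4:**
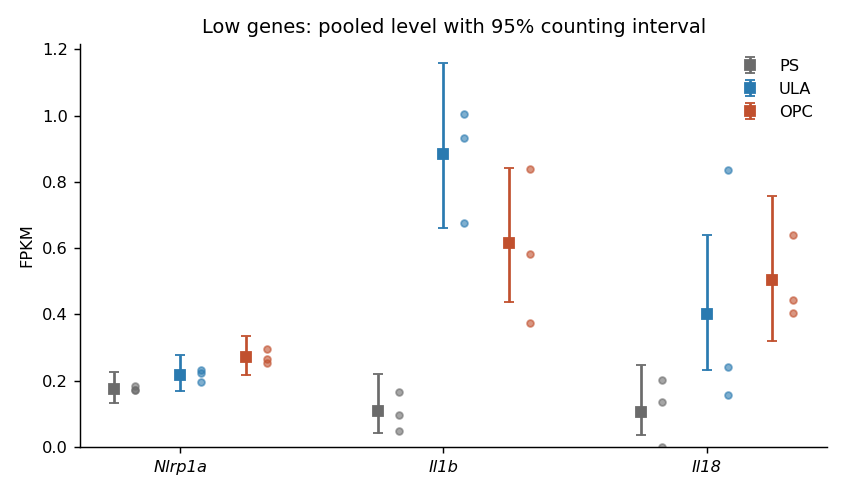
Level (FPKM, linear axis from 0) of Nlrp1a, Il1b and Il18, which did not pass the filter. Squares are the level over the pooled reads of the 3 libraries of a group with its 95% Poisson interval (counting error only), and small points are the libraries. For Il1b the PS interval (0.0432 to 0.221) lies below those of ULA and OPC, while the Nlrp1a intervals overlap.

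Il1r1, the signalling receptor of IL-1, stood at 56.2, 54.1 and 56.1 FPKM in PS, 176, 178 and 168 in ULA and 281, 290 and 254 in OPC. The 3 groups did not overlap and stood in the order PS, ULA, OPC. Its log2FC was 1.63 in ULA vs PS, 2.29 in OPC vs PS and 0.65 in OPC vs ULA (limma adjusted p = 3.09e-09, 8.08e-10 and 5.27e-06). Il1rap, the coreceptor, was at 6.68 ± 0.417 in PS, 9.46 ± 0.369 in ULA and 4.31 ± 0.170 in OPC, and thus fell in OPC relative to ULA (−0.98, adjusted p = 1.78e-06) and to PS (−0.53, adjusted p = 4.52e-05). Il1rn, the receptor antagonist, was higher in OPC (11.4 ± 1.69) than in ULA (6.30 ± 0.349, log2FC 0.76, adjusted p = 1.24e-04) and than in PS (5.58 ± 0.330, log2FC 0.91, adjusted p = 2.05e-05). Of 9 genes listed, 4 passed the filter, of which 2 were called higher and 1 lower in OPC vs ULA (32.2% and 21.7% of all tested genes). The other tested gene, Il18bp, which encodes the IL-18 binding protein, was called in none of the 3 comparisons with limma.

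The priming receptors and their adaptors, which act before the inflammasome and raise the transcripts of its parts in myeloid cells, were mostly higher on ULA and OPC than on PS. Of 10 tested, 8 were called higher and 0 lower in ULA vs PS, and 9 higher and 0 lower in OPC vs PS, with medians of 0.40 and 0.63 beside 0.06 and 0.11 over all genes. In OPC vs ULA, 5 were called higher and 1 (Cd14) lower, while Tlr4, Myd88, Tirap and Traf6 were not called. Over all tested genes, 38.4%, 40.4% and 32.2% were called higher in these comparisons, and 30.5%, 23.9% and 21.7% lower. Tlr2, a receptor of bacterial lipoproteins, was the DEG among them, at 29.5 ± 1.31 FPKM in PS, 44.5 ± 2.61 in ULA and 92.4 ± 1.12 in OPC, with a log2FC of 1.04 in OPC vs ULA (limma adjusted p = 2.56e-07). Over the alternative fits this log2FC was 0.973 to 1.08, so in part of them Tlr2 was called but was not a DEG. Tnfrsf1a, a TNF receptor, stood at 131 to 140 in the OPC libraries and 89.1 to 94.9 in the ULA libraries (log2FC 0.57, adjusted p = 2.44e-06). Irak1, a kinase of the Toll-like receptor and IL-1 receptor adaptor complex, stood at 58.3 ± 2.81 in OPC and 39.0 ± 1.61 in ULA (0.57, adjusted p = 6.19e-06). Cd14 went the other way, at 18.2 ± 0.956 in PS, 35.0 ± 2.24 in ULA and 21.6 ± 1.35 in OPC (−0.67 in OPC vs ULA, adjusted p = 2.11e-05). Nlrp3, itself a transcript that priming raises in macrophages, was lower on ULA and OPC than on PS, and its relation to these genes was not tested.

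Of the 13 tested triggers and regulators of NLRP3, 7 were called higher and 1 lower in ULA vs PS, 5 higher and 4 lower in OPC vs PS, and 1 higher and 4 lower in OPC vs ULA. Over all tested genes, 38.4% and 30.5%, 40.4% and 23.9%, and 32.2% and 21.7% were called higher and lower in these comparisons. The median log2FC of the 13 was 0.25, 0.06 and −0.06, beside 0.06, 0.11 and 0.06 over all genes. Txnip, a thioredoxin-binding protein that can bind NLRP3, stood at 23.3, 22.7 and 23.0 FPKM in PS, 334, 341 and 344 in ULA and 9.76, 9.43 and 6.70 in OPC. ULA stood far above both other groups and OPC stood below PS, with a log2FC of −5.16 in OPC vs ULA (limma adjusted p = 3.27e-09). P2rx4, an ATP-gated channel, was at 28.3 ± 2.46 in PS, 36.4 ± 2.12 in ULA and 58.5 ± 0.830 in OPC (0.67 in OPC vs ULA, adjusted p = 2.11e-05). P2rx7, another ATP-gated channel of the list, did not pass the filter. It averaged 0.0448 in PS, 0.0609 in ULA and 0.0561 in OPC, from 0 to 5 reads per library. March7, a ubiquitin ligase that targets NLRP3 for breakdown in mouse, was at 33.2 ± 1.36 in PS, 49.2 ± 0.965 in ULA and 39.5 ± 0.886 in OPC (−0.31 in OPC vs ULA, adjusted p = 1.28e-04). March7 was called higher than in PS in both ULA (0.55, adjusted p = 9.82e-07) and OPC (0.24, adjusted p = 3.81e-04).

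Of the 9 tested genes of the caspase-8 platform and of necroptosis, 5 were called higher and 0 lower in OPC vs ULA (32.2% and 21.7% of all tested genes), with a median of 0.23 beside 0.06 over all genes. In ULA vs PS 4 were called higher and 4 lower (38.4% and 30.5% of all), and in OPC vs PS 6 higher and 1 lower (40.4% and 23.9%). Ripk3, the kinase of the necrosome, was at 14.1 ± 1.02 FPKM in PS, 8.18 ± 0.321 in ULA and 13.4 ± 0.940 in OPC (0.65 in OPC vs ULA, limma adjusted p = 4.00e-05). Mlkl, the pore protein of necroptosis, was at 5.47 ± 0.414, 6.48 ± 0.227 and 10.3 ± 0.587 (0.60 in OPC vs ULA, adjusted p = 6.23e-05). Tab2, an adaptor of the TAK1 kinase, was at 30.9 ± 0.988, 28.9 ± 0.624 and 34.0 ± 0.308 (0.23 in OPC vs ULA, adjusted p = 5.15e-04). Ripk3 was thus lowest in ULA, and Mlkl was lowest in PS.

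Of the 3 other caspases reported here (Casp2, Casp9 and Casp12), 1 was called higher and 1 lower in ULA vs PS, 2 higher and 1 lower in OPC vs PS, and 0 in OPC vs ULA (adjusted p of 0.348 or more with limma, and 0 at an unadjusted p under 0.05). Over all tested genes, 38.4% were called higher and 30.5% lower in ULA vs PS, and 40.4% and 23.9% in OPC vs PS. In OPC vs ULA, 54.0% were called. Casp9, the initiator caspase of the apoptosome, was at 4.38 FPKM in PS, 6.05 in ULA and 6.17 in OPC on average, and was higher in ULA (log2FC 0.39, adjusted p = 0.00593) and OPC (0.42, adjusted p = 0.00423) than in PS. Its OPC vs ULA difference was 0.03 (−0.19 to 0.25, adjusted p = 0.809). Casp9 thus had the order of Casp1 relative to PS. Casp2, an initiator caspase, was at 5.83 ± 0.660, 6.58 ± 0.174 and 7.15 ± 0.689 (0.10 in OPC vs ULA, −0.09 to 0.30, adjusted p = 0.348). Its call in OPC vs PS (0.26, adjusted p = 0.0262) was lost without PS replicate 3 or OPC replicate 1 or 2 (0.0916, 0.0982 and 0.0589) and after upper-quartile rescaling (0.0764).

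**Figure D5:**
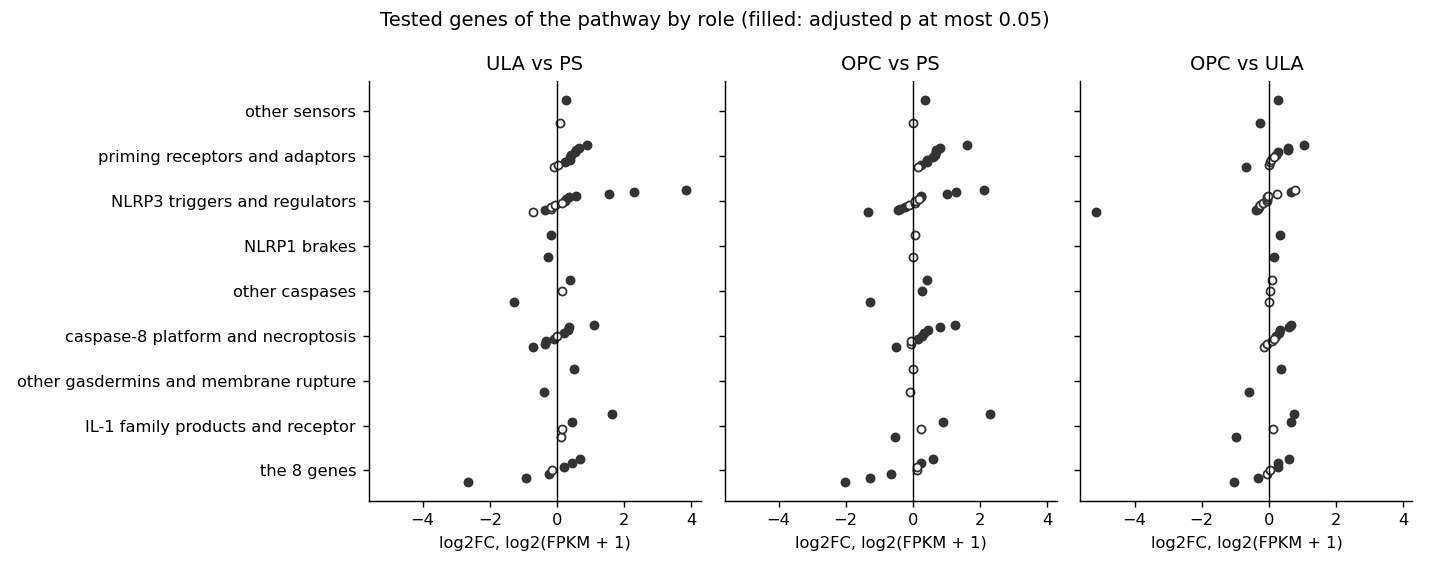
Difference between substrates on the log2(FPKM + 1) scale (horizontal axis) for the tested genes of the pathway by role (vertical axis), 1 point per gene, filled where the adjusted p was at most 0.05. Over the 8 further lists, 45 genes were tested, of which 24 were called higher and 9 lower in ULA vs PS, 25 and 7 in OPC vs PS, and 17 and 8 in OPC vs ULA, where 38.4% and 30.5%, 40.4% and 23.9%, and 32.2% and 21.7% of all tested genes were. Txnip lies farthest from 0, at −5.16 in OPC vs ULA.

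Many of these genes are best known from myeloid cells, so the markers of such cells were read beside them. Of 12 myeloid markers, 6 were found in the table and 1 (Cd68, a lysosomal protein) passed the filter, at 3.04 ± 0.353 FPKM in PS, 39.8 ± 0.218 in ULA and 23.9 ± 2.20 in OPC. The summed level of the 6 was 3.42 to 4.06 in PS, 40.9 to 41.7 in ULA and 22.8 to 27.9 in OPC. Most of this sum was Cd68, and the other 5 markers summed to 0.513 to 1.29 in PS, 1.31 to 1.81 in ULA and 1.21 to 1.94 in OPC. Csf1r, a receptor of macrophages, was at 0.188 to 0.306 in PS, 0.346 to 0.491 in ULA and 0.112 to 0.153 in OPC, so it was lowest in OPC with no overlap between the groups. Its values rested on 6 to 32 reads per library. Other markers of the list had other orders. Fcer1g averaged 0.522 in PS, 0.808 in ULA and 1.09 in OPC, with overlapping groups, and Aif1 averaged 0.0215, 0.139 and 0.122. Ptprc, which marks all leukocytes, was at 0 to 3 reads in every library, and Adgre1, a macrophage marker, was listed at 0 in all PS libraries and at or below 0.187 FPKM in the others. The part of such cells in the levels of Casp1, Il1b and the priming genes was not tested. In these bulk samples, fewer cells of a type and less RNA per cell cannot be told apart.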

How the data were processed

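The authors deposited 1 table of values per gene and library, with no unit named. The deposited values were read as FPKM: they have decimals and add up to between 444736.4 and 460731.7 per library. In each library, the value times span and depth was a whole number within 0.05 for 87.2 to 89.2% of 962 to 1095 genes. These were the genes that span under 1200 bases and had few inferred reads. The depth was searched for as the one that gave the most whole reads, so a high share is partly built in. Reads per gene were then recovered for all 8 genes (farthest from a whole number by 0.034). The submitters' processing notes name HISAT2 2.1, StringTie 1.3.0 and rn6, while the paper's methods name featureCounts and DESeq2. The sources used here do not say which of them made the values, or whether strand was used.

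Genes that reached 1 FPKM in 3 or more libraries were tested on log2(FPKM + 1). The test was limma 3.58.1 (R 4.3.3) with a trended empirical Bayes prior over all 9 libraries (6 residual degrees of freedom), two-sided and adjusted by Benjamini-Hochberg. The fit was also run on simulated independent values in which few genes changed. In these data most tested genes were called (54.0% in OPC vs ULA), so that run cannot show how the fit behaves here. Alternatives were a pseudocount of 0.1, no filter, upper-quartile rescaling, limma without trend, a replicate block, the compared groups alone, and leaving out each library. The members and the 8 further lists (75 genes, 66 found and 45 tested; the rest, and some further genes of the pathway, are not reported here) were chosen with earlier results of these data known. Genes named were the 8 members, up to 3 tested genes per list with the smallest adjusted p in OPC vs ULA, list genes that were DEGs there, and Il1b, Il18, Gsdme and Ninj1. Genes outside this rule, such as P2rx7 and Cd14, were named after their values were seen. Motifs were matched letter by letter in RefSeq promoter sequences. Poisson intervals are exact and cover counting error only, since reads are not independent molecules.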

Additional observations from a re-analysis of the deposited data

How the results depend on the processing

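Of 495 recomputed values for the 7 tested genes and the counts of calls, 467 kept their direction and side of the threshold, or stayed within 1.5 times for counts. With a pseudocount of 0.1, all DEGs in OPC vs ULA went from 542 to 892 and the DEGs among the 7 genes from 1 to 2 (Nlrp3, whose log2FC against PS became −3.51 and −2.49). Without the filter, 3 of the 7 genes were called in OPC vs ULA in place of 5: Pycard (−0.32, adjusted p = 0.0672) and Casp8 (0.28, 0.0741) were lost. Casp8 in OPC vs ULA was also lost after upper-quartile rescaling (0.22), in a fit of the 2 groups alone (0.28) and with a replicate block (0.28, adjusted p = 0.0538). Upper-quartile rescaling turned Nek7 in OPC vs ULA to −0.017. The cause of these shifts was not tested. Leaving out each library gave 2 to 5 genes called in OPC vs ULA, and log2FCs there of 0.44 to 0.81 for Nlrp3, −0.38 to −0.26 for Pycard, 0.21 to 0.39 for Casp8 and −0.15 to 0.012 for Casp1. For Casp8 in ULA vs PS it gave −0.27 to −0.079. The labels do not say whether replicate numbers pair the cultures. No shared shift was seen: deviations of same-numbered libraries correlated at −0.04 to 0.05, other pairs at −0.05 to 0.04. These correlations cannot settle whether same-numbered cultures were paired, since paired cultures need not share a visible shift. The block gave 6540 calls in place of 6751 in OPC vs ULA and 4 of the 7 genes, and among them changed the call of Casp8 alone. Of 945 values for other named genes, 894 kept direction and side, 35 were no longer called, 3 became called and 13 turned, all in uncalled comparisons: with upper-quartile rescaling Dpp9 (−0.0245) in OPC vs PS and Casp9 (−0.027) and Casp12 (−0.045) in OPC vs ULA, and, leaving out a library, Nod1 (−0.0215 to 0.011), Gsdme (−0.041 to 0.049), and Dpp8 (−0.032 to 0.017) in OPC vs PS and Casp9 (−0.058 to 0.12) and Casp12 (−0.039 to 0.077) in OPC vs ULA. Depth limits what can be said of Nlrp1a, Il1b and Il18, at 0 to 32 reads per library, and of Il18r1, P2rx7, Ptprc and Adgre1, at 0 to 28.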

Other observations

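Genes of the pathway that fell outside the rule for naming genes were read after their values were seen. Gbp2 and Gbp5, guanylate-binding proteins that interferons induce and that promote inflammasome assembly in mouse, were far higher on ULA and OPC than on PS. Gbp2 was at 1.76, 1.47 and 2.02 FPKM in PS, 13.5, 14.2 and 9.85 in ULA and 11.1, 13.8 and 8.46 in OPC. Its log2FC was 2.29 in ULA vs PS and 2.12 in OPC vs PS (limma adjusted p = 1.97e-06 and 4.07e-06), and −0.16 (−0.56 to 0.23, adjusted p = 0.458) in OPC vs ULA. Gbp5 was at 2.88 ± 0.0814 (SD, n = 3) in PS, 10.4 ± 1.70 in ULA and 8.56 ± 1.89 in OPC, with 1.55 and 1.28 against PS (adjusted p = 1.18e-05 and 5.29e-05). Both genes thus shared with Casp1 a level that was lowest in every PS library. Over all tested genes, 38.4% were called higher in ULA vs PS and 40.4% in OPC vs PS. A link between these genes and Casp1 was not tested. Il18r1, a chain of the IL-18 receptor, did not pass the filter and was at 0.379, 0.249 and 0.478 in PS, 0.0154, 0.0396 and 0.0193 in ULA and 0, 0.0188 and 0.0171 in OPC, from 0 to 28 reads.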
